A study of Caenorhabditis elegans with 2 samples.

Results

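The genes described here encode the epidermal attachment structures that resemble hemidesmosomes in C. elegans, and the data are where ELT-3, a GATA factor made in the epidermis, was mapped around them. They are 9 of the 19973 protein-coding genes annotated in the genome build WBcel235, which is the same assembly as ce11: the receptors mup-4, mua-3 and let-805, the linker genes vab-10, vab-19 and pat-12, and the intermediate filament genes ifb-1, ifa-3 and mua-6. A region of the authors' lists was counted to a gene when its summit lay inside the gene or within 5 kb of it, and 102 of the 30000 regions of the pooled list met that rule. ChIP-seq was done on whole L1 larvae, males and females pooled and of unknown age, from OP75, a line with unc-119(ed3) III and the insertion wgIs75, which stably expresses ELT-3 with GFP and FLAG at its C terminus. The data form 1 group of 2 biological replicates of this single line, with no second genotype, stage or treatment, and the control experiment that the labels name was not analysed here. Because whole animals were used, the tissue in which a region was bound cannot be told from these lists.

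Hemidesmosome-like structures, also called fibrous organelles, anchor body wall muscle to the cuticle through the thin epidermis that lies between them. On the basal face a receptor holds the matrix next to the muscle, on the apical face other receptors hold the cuticle, and intermediate filaments with their linker proteins run across the cell from one face to the other. Loss of these proteins is known to detach muscle from the body wall or to block elongation of the embryo.

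The authors' optimal set held 253 peaks, whose signal values, a score per region with no scale stated, ran from 42.6 to 173.5. The pooled list ran from 13.5 to 173.5 with a median of 16.9, and by the deposited notes the long lists hold background as well as peaks. Replicate 1 had 30000 regions and replicate 2 had 15646, both with a median of 10.4, and a pooled region counts as found in a replicate when a summit there lies within 100 bp. Nothing used here gives read depths, so a signal value carries no error of its own and values are compared within a list or as ranks by signal in that list.

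One gene of the set carried an optimal peak. That gene was mup-4, whose peak had a pooled signal of 55.2, and the next region of the set, at pat-12, had 40.2 and was just under the weakest optimal peak. A share of 1 of 9 genes stood beside 3.24% of all protein-coding genes with an optimal peak within 5 kb, and beside 3.64% of the 6784 that are at least 2873 bp long, the length of the shortest of the 9. With a looser limit, the first 1000 pooled regions, 3 of 9 genes had a region, namely mup-4, pat-12 and ifb-1. The same limit was met by 11.2% of all protein-coding genes and by 13.9% of the 6784 longer ones.

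The sequences around 10 summits show what lies under the strongest regions: the 4 regions ranked in the first 1000, and the strongest region of every other gene except vab-10, whose sequence is not shown. The last 2 lie before the start of a shorter transcript and were chosen after their values were seen, since they hold matches to the word described next. Each is 101 bases of the WBcel235 reference from RefSeq, centred on the pooled summit and written 5′ to 3′ on the strand of the gene, with every match to the GATA-factor word WGATAR in capitals. In that word W stands for A or T and R for A or G, and both strands were searched.
mup-4 first intron (chrIII:7488426-7488526, minus strand): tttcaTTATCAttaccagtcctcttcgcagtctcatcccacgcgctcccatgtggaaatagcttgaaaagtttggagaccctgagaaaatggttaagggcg
mup-4 upstream (chrIII:7490649-7490749, minus strand): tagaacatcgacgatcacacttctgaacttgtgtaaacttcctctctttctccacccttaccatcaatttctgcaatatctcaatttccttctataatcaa
pat-12 first intron (chrIII:748860-748960, minus strand): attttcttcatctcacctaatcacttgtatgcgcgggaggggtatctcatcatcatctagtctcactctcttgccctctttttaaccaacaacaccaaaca
ifb-1 upstream (chrII:5764009-5764109, plus strand): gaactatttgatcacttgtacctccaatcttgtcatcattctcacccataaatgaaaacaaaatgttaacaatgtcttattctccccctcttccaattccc
let-805 coding exon (chrIII:2674212-2674312, plus strand): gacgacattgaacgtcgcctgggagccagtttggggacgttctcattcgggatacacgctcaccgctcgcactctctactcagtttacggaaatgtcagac
mua-3 coding exon (chrIII:10173265-10173365, plus strand): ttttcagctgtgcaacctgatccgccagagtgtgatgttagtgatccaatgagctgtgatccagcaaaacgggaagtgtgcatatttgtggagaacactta
vab-19 past the 3′ end (chrII:2453485-2453585, plus strand): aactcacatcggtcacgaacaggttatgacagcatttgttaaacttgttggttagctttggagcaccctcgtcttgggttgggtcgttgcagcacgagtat
mua-6 intron 4, shared with ifa-3 (chrX:16263490-16263590, minus strand): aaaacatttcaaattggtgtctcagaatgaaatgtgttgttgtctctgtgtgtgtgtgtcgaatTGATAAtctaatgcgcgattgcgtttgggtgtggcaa
ifb-1 before the inner start (chrII:5768593-5768693, plus strand): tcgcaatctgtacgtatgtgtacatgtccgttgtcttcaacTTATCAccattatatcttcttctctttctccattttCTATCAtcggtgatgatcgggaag
let-805 before an inner start (chrIII:2676235-2676335, plus strand): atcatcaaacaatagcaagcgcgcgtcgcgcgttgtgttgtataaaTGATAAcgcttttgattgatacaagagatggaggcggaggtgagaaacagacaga

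Of the 9 regions that are in the first 1000 or the strongest of a gene, vab-10 among them, 2 hold a match, in mup-4 and in mua-6. The first intron of mup-4 has TGATAA on the other strand, printed as TTATCA, and the first printed base is 45 bp before the summit. The window before the inner start of ifb-1 has 2 matches on the other strand, TGATAA and TGATAG, printed as TTATCA and CTATCA. Their first printed bases are 9 bp before and 27 bp after the summit. In let-805 a TGATAA starts 4 bp before the summit, and in mua-6 one starts 14 bp after it. The windows upstream of mup-4 and ifb-1 and in the first intron of pat-12, which carry 3 of the 4 regions in the first 1000, have no match, nor do the strongest regions of let-805, mua-3, vab-19 and vab-10. Of 5 regions with the summit up to 500 bp upstream of an inner start, 3 hold a match and 2, at vab-10 and pat-12, do not. Among all pooled regions, wherever they lie, 21.6% hold one. Of the 3, those at ifb-1 and let-805 were chosen above because they hold a match. The count therefore does not measure how common the word is at inner starts. Regions up to 500 bp downstream of an inner start, at vab-10 and pat-12, are not in this count. Of these only a region at vab-10 holds a match. The word CGCTCC, taken up because of earlier results on these peaks, stands once in the mup-4 intron window, in the stretch gcgctccc. It was in 2 of the 102 regions at the 9 genes, 1.96%, against 1.80% of all pooled regions and 8.70% of the optimal peaks.

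MUP-4 is a transmembrane receptor of the apical face, where it binds the epidermis to the cuticle. The gene lies at chrIII:7479680-7489105 on the minus strand and had 11 pooled regions. Its optimal peak, at chrIII:7488351-7488600, had a pooled signal of 55.2 and rank 86, with 26.0 and rank 171 in replicate 1 and 28.9 and rank 88 in replicate 2. It is in intron 1 of 19, which is 790 bp long, with the summit 629 bp downstream of the annotated 5′ end. It was in the first 1000 of both replicates. A region as strong was found within 5 kb of 1.21% of protein-coding genes.
The gene also had a region upstream, at chrIII:7490574-7490823, with the summit 1594 bp before the 5′ end and a pooled signal of 30.9 at rank 816. It had 10.5 and rank 14711 in replicate 1 and 18.6 and rank 486 in replicate 2, so it was in the first 1000 of replicate 2 alone. Of the 11 regions at mup-4, 6 were upstream of the gene, 1 in an intron, 3 in coding exons and 1 downstream. Annotated 5′ ends in C. elegans are often trans-splice sites, where a short leader RNA is joined on, so the distance to the place where transcription begins can differ.

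**Figure D1:**
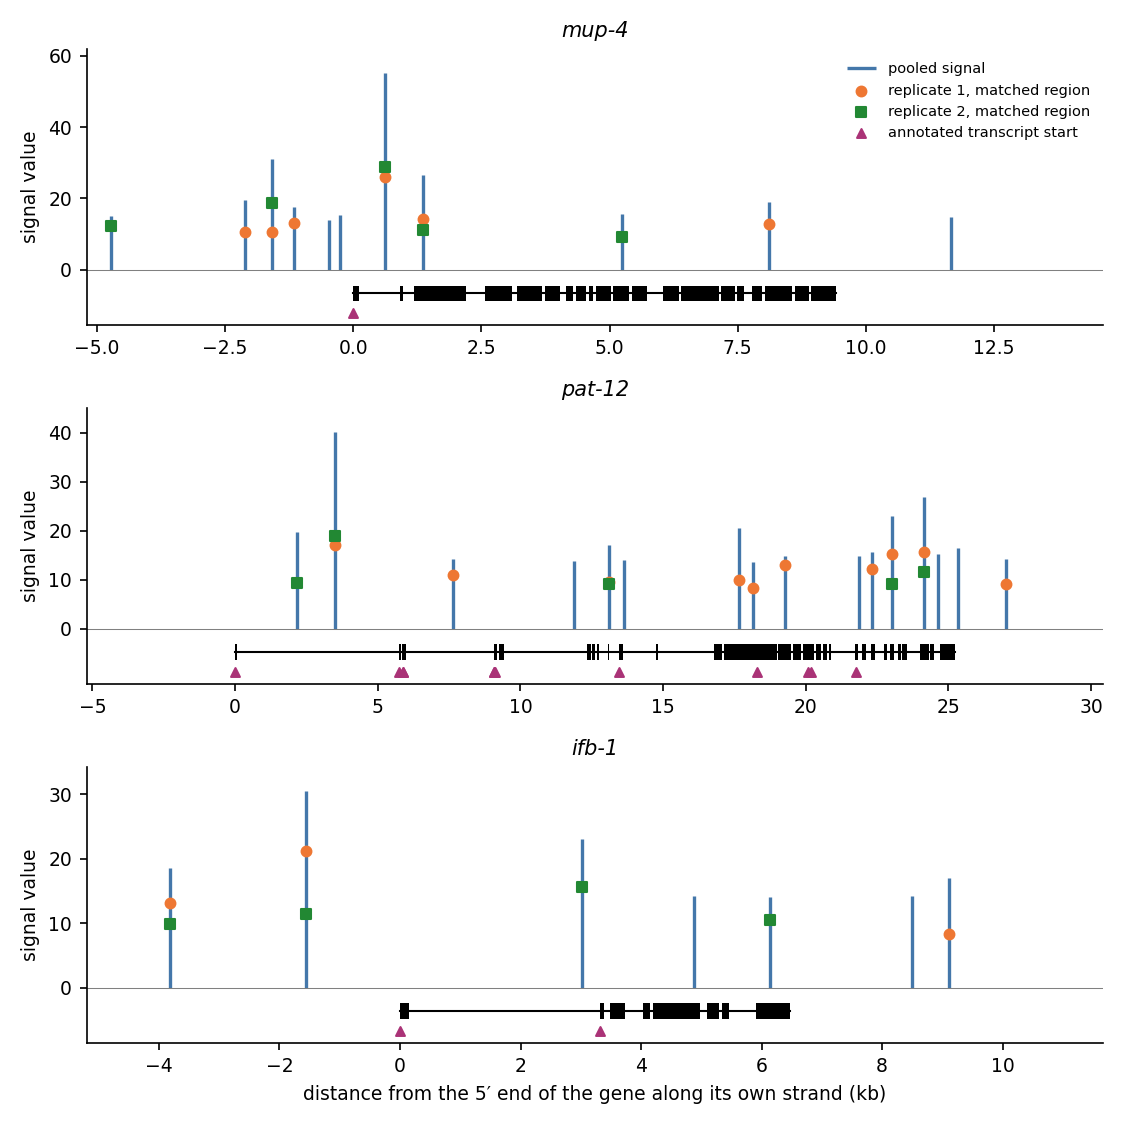
Pooled signal values (bars, blue) at mup-4, pat-12 and ifb-1 against the distance from the gene's annotated 5′ end in kb along its own strand, with the matched value in replicate 1 (circles) and replicate 2 (squares), exons as black boxes and annotated transcript starts as triangles. The tallest bar is in the first intron at mup-4 (55.2) and pat-12 (40.2) and upstream at ifb-1 (30.5), and each of these 3 has a circle and a square; heights are not compared between lists.

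MUA-3 is the second apical receptor and is related to MUP-4 in its layout. Its gene, at chrIII:10160697-10183529 on the plus strand, had 11 pooled regions, 7 of them in coding exons and 3 in introns. The strongest had a pooled signal of 25.3 and rank 2229, with the summit in a coding exon 12618 bp from the 5′ end, and only replicate 2 had a match, of 9.06 at rank 13606. A region as strong was near 23.2% of protein-coding genes, so the apical receptor genes stood apart in rank, with mup-4 inside the optimal set and mua-3 well below it.

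LET-805, or myotactin, is the receptor of the basal face, opposite the muscle. The gene, at chrIII:2658083-2681112 on the plus strand, had 19 pooled regions, 12 in coding exons and 4 in introns. Its strongest had 27.6 and rank 1419 and lay in a coding exon 16179 bp from the 5′ end, with 14.8 in replicate 1 and 9.04 in replicate 2. A weaker region, of 21.9 at rank 4699, had its summit 66 bp upstream of the start of a shorter transcript and carries the TGATAA shown above. Replicate 1 had a match there of 10.4 at rank 15139, and replicate 2 had none.

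The strongest region at a linker gene was that of pat-12. PAT-12 is a nematode protein of the hemidesmosome, and its gene, at chrIII:727207-752426 on the minus strand, had 16 pooled regions under 19 annotated transcripts with 12 distinct starts. The strongest, at chrIII:748785-749034, had 40.2 and rank 309, with 17.1 and rank 1461 in replicate 1 and 18.9 and rank 458 in replicate 2. It is in intron 1 of 18, of 5651 bp, with the summit 3516 bp downstream of the first start and 2217 bp upstream of the next. Replicate 1 had a stronger region at pat-12, of 17.8 at rank 1167, with no pooled summit within 100 bp. A pooled region as strong as the 40.2 of the intron was near 3.92% of protein-coding genes. The other 15 pooled regions at pat-12 were weaker than rank 1000.

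VAB-10 is a spectraplakin, a large protein that ties receptors to the cytoskeleton, and the gene makes several forms by alternative splicing. It is the longest of the 9, on chromosome I from 11747424 to 11804991 on the minus strand, and had the most pooled regions, 26. The strongest had 28.9 and rank 1135, just outside the first 1000, with 20.7 and rank 540 in replicate 1 and 8.99 and rank 14209 in replicate 2. Its summit is in a coding exon of 6 transcripts and in an intron of 5 others. It was in the first 1000 of replicate 1 alone.

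VAB-19 is a protein with ankyrin repeats related to the Kank family, and it helps to place the attachments. Its gene, at chrII:2443279-2450947 on the plus strand, had 5 pooled regions, the fewest. The strongest, of 21.4 at rank 5351, was 2588 bp past the 3′ end and inside another gene, pqn-42. It had 11.9 and rank 9284 in replicate 1 and 9.52 and rank 11234 in replicate 2. A region as strong was near 47.4% of protein-coding genes, which leaves vab-19 in the middle of the genome's genes by this measure.

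IFB-1 is the intermediate filament protein that pairs with the IFA proteins in epidermal filaments. The gene, at chrII:5765618-5772084 on the plus strand, has 2 annotated transcripts and had 7 pooled regions. The strongest, at chrII:5763934-5764183, was 1559 bp upstream of the gene with 30.5 at rank 866, and had 21.2 and rank 476 in replicate 1 and 11.4 and rank 5281 in replicate 2. It was in the first 1000 of replicate 1 alone, and the upstream region of mup-4 of replicate 2 alone. A second region, at chrII:5768518-5768767 in the 3324 bp first intron, was 302 bp upstream of the start of the shorter transcript and had 23.1 at rank 3595. It holds the 2 WGATAR matches shown above, and had no match in replicate 1 but 15.7 and rank 1125 in replicate 2, the strongest replicate 2 region at the gene.

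IFA-3 and the product of mua-6, IFA-2, are the other filament proteins of the set. Their genes are neighbours on the X chromosome's minus strand, at chrX:16267197-16270069 and chrX:16262289-16265686, and 6 pooled regions lie within 5 kb of both, so their counts are not independent. The strongest region of both is the same, at chrX:16263415-16263664 in intron 4 of 5 of mua-6 and 3657 bp past the 3′ end of ifa-3, with 25.4 and rank 2185 in the pooled list. It had 9.59 and rank 19437 in replicate 1 and 16.8 and rank 824 in replicate 2. The nearest annotated 5′ end of a protein-coding gene was that of sgk-1, 1418 bp away, rather than that of either filament gene. A region as strong was near 22.9% of protein-coding genes.

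**Figure D2:**
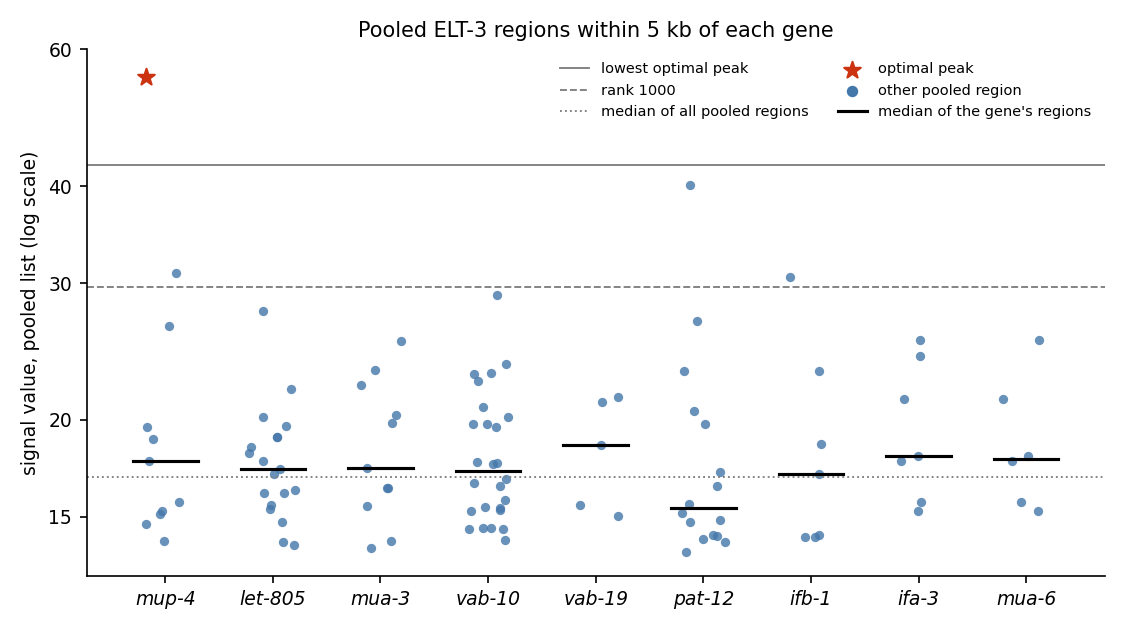
Signal values of the pooled regions within 5 kb of each gene (points, log scale; star, the optimal peak), with each gene's median as a short black bar and lines at the lowest optimal peak (42.6), at rank 1000 (29.6) and at the median of all pooled regions (16.9). One region is above the upper line, 4 are above the middle line, and the genes' medians are close to the lowest line; regions counted to both ifa-3 and mua-6 are drawn at each.

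Ordered by their strongest pooled region, the genes ran mup-4, pat-12, ifb-1, vab-10, let-805, ifa-3 with mua-6, mua-3 and vab-19. Receptors, linkers and filament genes were each spread along this order. The median best rank was 1419 for the 9 genes, 5490 for all protein-coding genes and 4635.5 for the 6784 longer ones. The 9 are longer, with a median of 9426 bp against 2027 bp for all and 4841.5 bp for the longer genes, and a longer gene has more room for a region, so this order was not taken as a difference in binding. Within single replicates, mup-4 was in the first 1000 of both, ifb-1 and vab-10 of replicate 1 alone, and pat-12 and the shared ifa-3 and mua-6 region of replicate 2 alone.

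**Figure D3:**
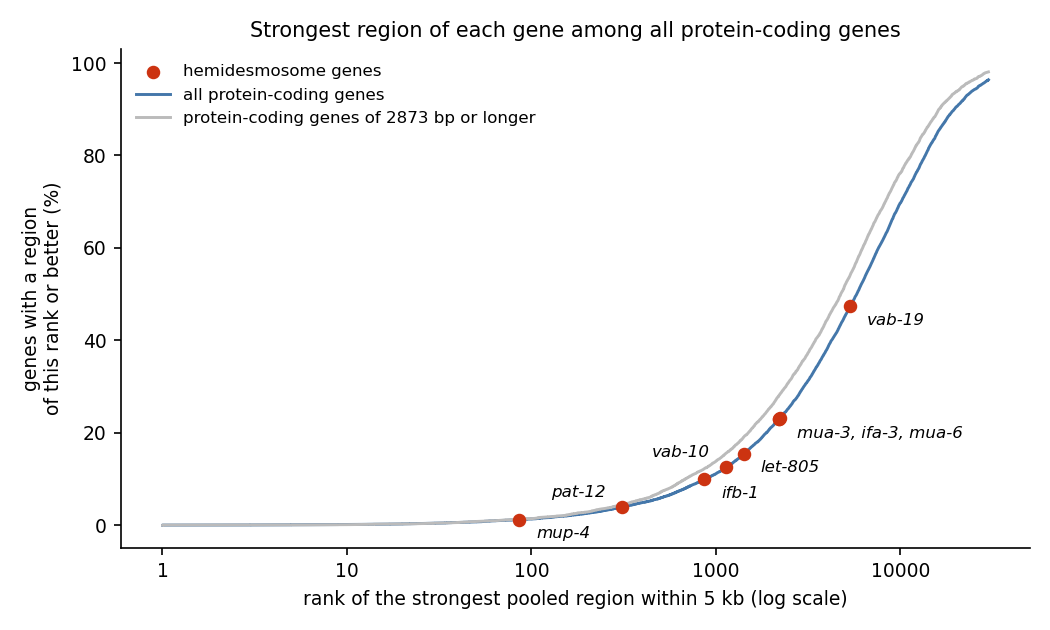
Rank of the strongest pooled region within 5 kb of each gene (log scale) against the percentage of protein-coding genes with a region of that rank or better, for the 9 genes (red points), all protein-coding genes (blue line) and those of 2873 bp or longer (grey line). The points run from 1.21% at mup-4 to 47.4% at vab-19, and 7 of them are between 3.92% and 23.2%.

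Regions were more closely spaced at these genes than over the genome, in the pooled list and in both replicates. There were 4.25 pooled regions per 10 kb of the 239994 bp covered, against 2.99 over the genome, and replicate 1 gave 4.46 against 2.99 and replicate 2 gave 1.96 against 1.56. Inside the genes there were 78 summits, or 4.92 per 10 kb, against 3.14 over all protein-coding genes. By gene the density ran from 2.83 per 10 kb at vab-19 to 5.75 at let-805, and the median of the 9 was 4.48, against 2.92 over all protein-coding genes. A density as high as that of let-805 was seen at 6.38% of protein-coding genes, and as high as that of vab-19 at 52.1%. The median signal was 17.2 at the 9 genes and 16.9 in the whole pooled list. GC content was also higher, with a median of 43.6% in the 101 bp windows at the 9 genes and 38.6% in all pooled windows, and its part in the density was not tested.

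Most regions lay inside the genes. Of the 102 regions, 42 were in coding exons, 2 in UTRs, 34 in introns, 13 upstream and 11 downstream. Exons took 56.4% of the summits inside the 9 genes (44 of 78, 95% exact interval 44.7% to 67.6%), against 58.8% inside all protein-coding genes, while exons make up 47.5% of the base pairs of the 9 genes and 47.1% of all. Counting the coding exons of any protein-coding gene, 48 of the 102 summits were in one, 47.1% (37.1% to 57.2%), against 33.9% of all pooled regions. With limits on rank set after the values were seen, the count was 5 of 10 in the first 2500 (18.7% to 81.3%), against 23.4% of all first 2500. In the first 5000 it was 9 of 20 (23.1% to 68.5%), against 30.02%, and both intervals include the share of the whole list. The 5 in the first 2500 were at mup-4, mua-3, let-805, vab-10 and pat-12. The regions at the 9 genes were chosen for lying in or near a gene, and those of the whole list were not. Within 500 bp of an annotated transcript start there were 17 of 102 summits, 16.7% (10.02% to 25.34%), against 26.2% of all pooled regions. The genes are long, which leaves fewer of their bases near a start, and the part of length in this share was not tested.

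The share of regions with the GATA-factor word was near that of the whole list. WGATAR was within 50 bp of 21 of 102 summits, 20.6% (13.2% to 29.7%), against 21.6% of all pooled regions and 44.3% of optimal peaks. In 101 bp windows centred 500 bp to either side of the same summits it was in 37 of 204 windows, 18.1%. Of such windows beside all pooled regions, 20.6% held it. Among the 20 regions ranked in the first 5000 the share was 25%, against 27.1% of all first 5000. The longer word GATAAG was in 4 of 102, 3.92%, against 5.52% of all pooled regions.

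Found in both replicates were 18 of the 102 regions, 17.6% (10.8% to 26.5%), against 15.03% of all pooled regions. Replicate 1 had a match for 66, replicate 2 for 33, and neither for 21. Stronger regions by pooled signal were found in both more often, here and in the whole list. The pooled list was made from both replicates, so its ranks are not independent of being found in both. Of the 20 regions in the first 5000, 65.0% were found in both, against 57.6% of all first 5000, and of the 82 ranked after them 6.10% were, against 6.51%. Of the 18, 1 was in the first 1000 of both replicates, the optimal peak of mup-4, while 2 were in that of replicate 1 alone, 3 in that of replicate 2 alone and 12 in neither. Read the other way, 41 of the 107 replicate 1 regions and 14 of the 47 replicate 2 regions at these genes had no pooled summit within 100 bp.

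**Figure D4:**
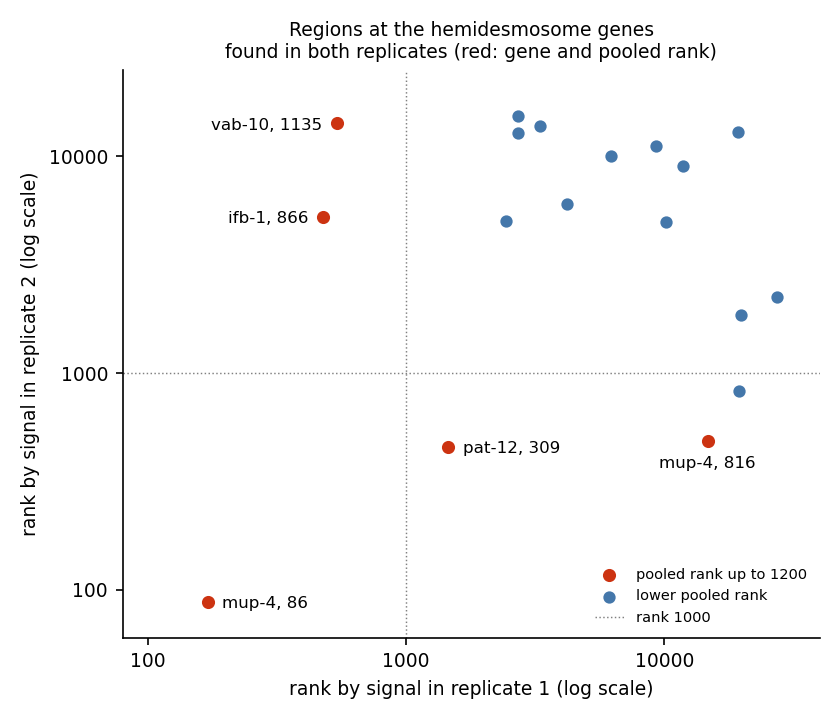
Rank by signal in replicate 1 (x) against rank in replicate 2 (y), each within its own list and on log scales, for the 18 pooled regions at the 9 genes found in both replicates; red points have a pooled rank up to 1200, given beside the gene, blue points a lower pooled rank, and dotted lines mark rank 1000. One point, mup-4, is inside both lines, 2 are inside that of replicate 1 alone and 3 inside that of replicate 2 alone.

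Related genes, of this attachment and of structures around it, in lists chosen with earlier results of these data known, gave the following counts. The first list, of 18 genes, mixed other intermediate filament genes and hemidesmosome regulators with further genes such as mup-2. It was not limited to genes of the epidermis. Of the 18, 1 had an optimal peak and 2 a region in the first 1000. These were pak-1, a kinase that acts in the signal from muscle to epidermis, with 51.4 at rank 123, and spc-1, alpha-spectrin, with 38.7 at rank 345, and both regions were past the 3′ end and nearest the 5′ ends of hsp-25 and gpd-2. Of 16 basement membrane and matrix genes, none had an optimal peak and 2 had a region in the first 1000, the laminin beta gene lam-1 at rank 446, past its 3′ end and 241 bp upstream of W03F8.4, and the hemicentin gene him-4 at rank 531, in an intron. Of 10 genes of the muscle side, none had an optimal peak and 1, pat-6, which encodes actopaxin, had a region in the first 1000, 183 bp upstream of its neighbour dpy-9. Of 19 apical junction genes, 2 had an optimal peak and 4 a region in the first 1000: the polarity genes par-3 at rank 9 and pkc-3 at rank 715, the Discs large gene dlg-1 at rank 211 and the afadin gene afd-1 at rank 951. The par-3 peak was 115 bp upstream of ska-3 rather than near the 5′ end of par-3, that of afd-1 was nearest the 5′ end of Y37E3.30, and those of dlg-1 and pkc-3 were 4412 bp and 315 bp upstream of their own. A region in the first 1000 was near 11.2% of all protein-coding genes and 13.9% of those of 2873 bp or longer. Beside these, the shares were 11.1%, 12.5%, 10% and 21.1% in the order given, and 33.3%, or 3 of 9, for the 9 genes. Median lengths were 4299, 8155.5, 5288 and 7579 bp in the same order, 9426 bp for the 9 and 2027 bp for all genes. The 9 genes too were chosen with earlier results of these data known.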

How the data were processed

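ELT-3 ChIP-seq regions from 2 replicates of 1 group were analysed. Per the deposited notes, the authors made each replicate list from that replicate's alignments and a control, the pooled list from both replicates, and the optimal set by an IDR threshold on these lists. Each region's signal value is a score deposited by the authors. Its scale, the peak caller, the aligner and the read depth are unstated in the labels and notes. The ce10 lists were not used here.

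Summits were set against the Ensembl release 115 WBcel235 annotation and the RefSeq genome of that assembly, with Python 3.11.15, pandas 2.3.3, numpy 2.4.6, scipy 1.17.1 and matplotlib 3.10.9. Intervals are 95% exact (Clopper-Pearson) and cover counting error only. No test was run, since there is 1 group. The word search was tested on words planted in random sequences, and summit matching and reach on a small made-up set of summits. Regions described singly are optimal peaks, those in the first 1000 and each gene's strongest; others are said to be chosen later. Members and lists were chosen with earlier results of these data known. Alternatives were other distances, words, matching limits and single replicates.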

Additional observations from a re-analysis of the deposited data

How the results depend on the processing

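Of 41 values recomputed under another choice, 33 moved by no more than the limits used (1.5 times for a count). Among those 33, the genes with a region in the first 1000 numbered 2 with the gene body alone, and regions matched in both replicates were 11.8% within 50 bp and 22.5% within 200 bp. With a reach of 10 kb the median signal of the pooled regions was 17.03. WGATAR was in 10.8% of regions within 25 bp of the summit, against 11.4% of all pooled regions, and in 31.4% within 100 bp, against 38.3%; the word GATAAG was in 3.92%, against 5.52%. With 1 replicate's own list in place of the pooled one, the regions numbered 47 to 107, the median signal was 10.68 to 10.70 and the density 1.96 to 4.46 per 10 kb, while 1 gene, mup-4, had a region among the 253 strongest of either replicate and 3 to 4 genes had one in the first 1000. The optimal peak of mup-4 was counted under every choice of distance tried. No paired analysis was possible because there is 1 group and no test. The signal's unstated scale and the unknown read depth limit comparison between lists.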
